A study of Bos taurus with 16 samples.

Results

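Rumen papillae of feed-efficient steers were compared with those of feed-inefficient steers, and the comparison takes 8 of the 16 animals in the series. The efficient animals are the 4 labelled high gain with low intake, and the inefficient animals are the 4 labelled low gain with high intake; both were chosen by these labels alone. All were crossbred male steers of 344 ± 48 days, fed freely on 1 ration of 57.35% corn, 30% distillers grains, 8% alfalfa, 4.25% supplement and 0.4% urea, and none was treated. Animals entered the study by their quadrant of gain and dry matter intake, so the groups differ in both traits at once and neither trait can be told apart from the other here. The other 8 steers, 4 with high gain and high intake and 4 with low gain and low intake, serve for the estimate of spread and for context. Each animal gave 1 library of polyadenylated RNA, read as single reads of 50 bases. Papillae were clipped whole, so fewer cells of a type and less RNA per cell cannot be told apart.

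Papillae are the leaf-like folds of the rumen wall. Their stratified squamous epithelium takes up the acetate, propionate and butyrate that microbes make from feed, turns much of the butyrate into ketone bodies, exchanges sodium for protons, and returns urea to the rumen. The innermost cells divide, and their daughters move outwards, cornify and are shed. Papillae also hold a core of connective tissue with vessels, smooth muscle and immune cells.

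Levels are the authors' mean read coverage per base, scaled so that the totals of all libraries are almost equal, in the exon region of a gene with the highest mean coverage. Differences are on the log2(value + 0.1) scale, efficient minus inefficient, so a positive one means a higher level in efficient steers; they understate the change of low genes. Epithelial markers were abundant in all 8 libraries, with KRT5 at 79.1 to 232 in efficient and 116 to 257 in inefficient steers, although the epithelial keratin KRT4 was near 0 (0 to 1.13 and 0.18 to 0.90). The B cell marker MS4A1 was listed at 0 in all 8 libraries, and the red cell genes HBB and ALAS2 were at or under 0.69 in efficient and 0.76 in inefficient steers. Estimated reads were 17.7 ± 2.60 M in efficient and 14.6 ± 1.93 M in inefficient steers (SD, n = 4 each; exact permutation test, two-sided, p = 0.114).

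The libraries of the efficient steers stand apart in their coverage of the start of genes. The first-exon index, the log2 coverage of first exons over that of other exons in 1898 genes, was -1.72, -3.25, -2.72 and -2.57 in efficient replicates 1 to 4, against -0.75, -1.11, -0.73 and -0.96 in inefficient replicates 1 to 4. The groups did not overlap (-2.57 ± 0.634 against -0.89 ± 0.182, SD, n = 4 each; exact permutation test, two-sided, p = 0.0286, the smallest that 70 arrangements allow; Benjamini-Hochberg adjusted over 5 library measures, 0.143). Efficient replicates 2, 3 and 4, and 1 library each of the other 2 groups, lay under an index of -2 and are called low in first exons below; efficient replicate 1 and every inefficient library lay above it. Mitochondrial sequence took 11.1% to 28.03% of bases in efficient and 8.75% to 20.9% in inefficient steers (exact p = 0.171), and 30 to 592 tested genes were listed at 0 in efficient libraries, against 17 to 53 in inefficient ones (exact p = 0.0857). On the first principal component, which held 73.6% of the variance of the 8 libraries, efficient replicates 1 to 4 scored -23.1, 159, 64.8 and 40.7, and inefficient libraries -63.0 to -57.9 (exact p = 0.0286, adjusted over 3 components 0.0857). Efficient replicate 1 was the one nearest to the inefficient libraries, with correlations of 0.883 to 0.914 to them; efficient replicate 2 was the farthest, with 0.496 to 0.533.

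**Figure D1:**
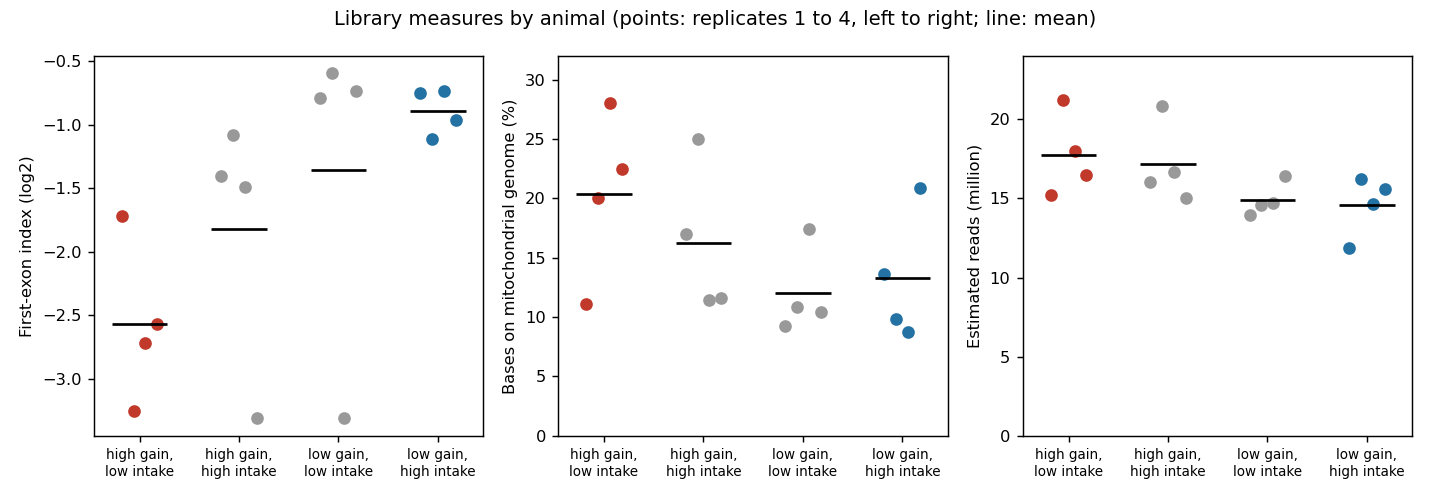
The first-exon index (log2, left), the share of bases on the mitochondrial genome (%, middle) and estimated reads (M, right) in each of the 16 libraries, with 4 groups from high gain with low intake on the left to low gain with high intake on the right; points are animals and lines are means. In the left panel all 4 efficient libraries lie below all 4 inefficient ones, and only efficient replicate 1 of its group lies above -2.

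Across the transcriptome no gene passed the test. Of 8903 genes tested with limma on all 16 libraries, 0 (0.0%) were higher and 0 (0.0%) lower in efficient steers at a Benjamini-Hochberg adjusted p of 0.05, and the smallest adjusted p was 0.377. At an unadjusted p under 0.05, 382 genes (4.29%) were higher and 786 (8.83%) lower. In 1142 genes (12.8%) all 4 efficient values lay above all 4 inefficient values, and in 1513 (17.0%) all lay below. The number of calls differed with the libraries in the fit: with the 8 libraries alone, without the other 8 animals in the estimate of spread, limma called 140 genes (1.57%) higher and 537 (6.03%) lower. In the last exon region, a setting added after the data were seen, it called 780 (9.01%) higher and 1219 (14.1%) lower. Differences, SEs and p-values below come from the fit on 16 libraries unless the 8-library fit is named.

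Most of the genes called in the 8-library fit also set apart the low first-exon libraries of the other 2 groups. Of the 537 lower genes, 95.5% were also below all 6 other libraries in both of the low first-exon libraries outside the comparison, against 35.5% of all tested genes. Of the 140 higher genes, 93.6% were above all 6 in both, against 32.4% of all tested genes. Across genes, the efficient minus inefficient difference and the difference between those 2 libraries and those 6 had a Pearson r of 0.899 over 8903 genes, as a description, since genes share their libraries. The part of first-exon coverage in the group differences was not tested further, and group and first-exon index cannot be told apart among the 8 libraries, which do not overlap in it. Gene and list results below are therefore mostly given with the value for efficient replicate 1 alone against the 4 inefficient steers, and many genes also with the difference between the same 2 and 6 libraries of the other steers. These are called the replicate 1 difference and the low-library difference.

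**Figure D2:**
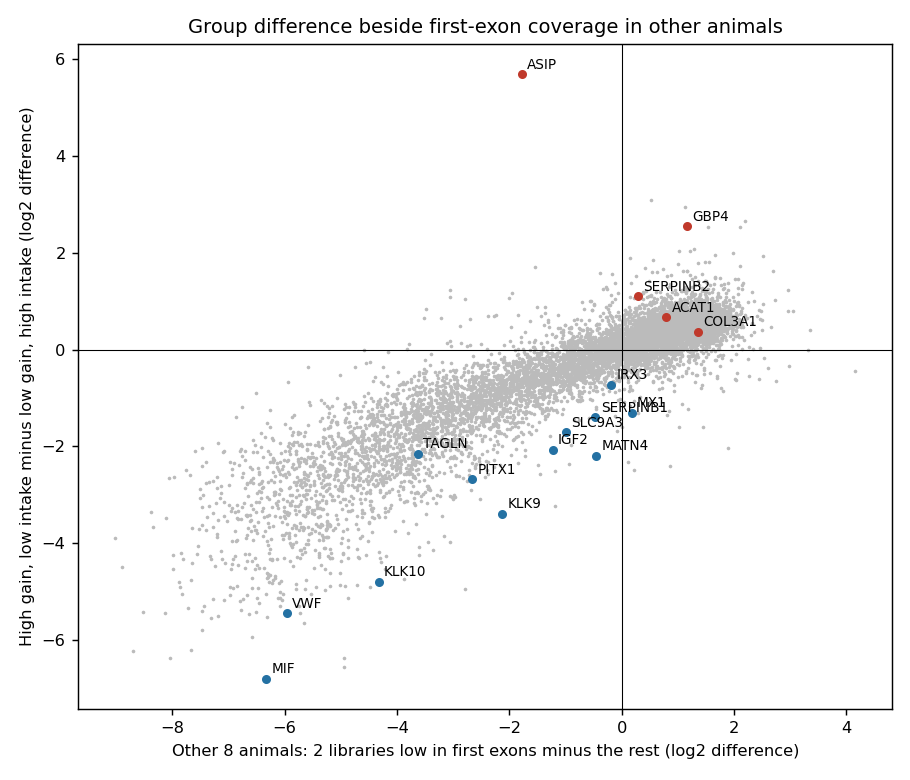
Each point is 1 of 8903 genes; the vertical axis is the log2 difference of efficient minus inefficient steers, and the horizontal axis is the log2 difference of the 2 low first-exon libraries minus the other 6 libraries among the remaining 8 steers. The points rise together (r = 0.899); ASIP, at 5.69 on the vertical and -1.78 on the horizontal axis, lies off the band, and MATN4 and MX1 lie below it.

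Genes of ketone body synthesis gave mixed values. ACAT1, the thiolase that makes acetoacetyl-CoA, read in exon 4 on chromosome 15 from 18017705 to 18017812 of UMD3.1 as the deposited file gives it, had a level of 139, 139, 116 and 115 in efficient steers, against 86.7, 99.6, 99.1 and 47.1 in inefficient steers. Its groups did not overlap (difference 0.67, SE 0.31, limma unadjusted p = 0.0486, adjusted p = 0.377). For ACAT1 the replicate 1 difference was 0.80 and the low-library difference 0.79. BDH1, which reduces acetoacetate to hydroxybutyrate, had a level of 141, 17.5, 71.7 and 146 in efficient steers, against 114, 167, 117 and 55.1 in inefficient steers (difference -0.56, limma adjusted p = 0.73), with a replicate 1 difference of 0.43 and a low-library difference of -3.53. The BDH1 groups overlapped, with efficient replicate 2 the lowest of the 8 animals. Over the 9 tested ketone body genes, 5 estimates were above 0 and 4 below, with a median of 0.21 (replicate 1 alone 0.43), beside a median of 0.03 and 51.3% of estimates above and 48.7% below 0 over all tested genes.

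Propionate and acetate use had the highest median difference of the 33 lists with at least 5 tested genes, 0.54, with 7 of 10 estimates above 0 and 0.43 for replicate 1 alone. That rank depended on the scaling: it was also the highest with median centring (0.83), but under quantile normalization interferon-induced genes (0.90), cell cycle genes (0.80) and innate sensing (0.65) were above its 0.54, and with the first-exon index as a term it was 0.21, below glycolysis at 0.77. MCEE, the epimerase of the propionate pathway, had a level of 22.8, 17.8, 23.9 and 17.7 in efficient steers, against 11.6, 9.63, 11.2 and 10.6 in inefficient steers, with no overlap (difference 0.91, SE 0.38, limma unadjusted p = 0.0291, adjusted p = 0.377; 8-library fit, adjusted p = 0.0371). MMAA, which handles the cobalamin cofactor of the next enzyme, had a level of 7.81, 13.2, 8.16 and 10.1 in efficient steers, against 4.01, 5.09, 6.59 and 4.71 in inefficient steers (difference 0.92, SE 0.30, unadjusted p = 0.00743; 8-library fit, adjusted p = 0.0498). Both genes were also above the other 6 libraries in the 2 low first-exon libraries elsewhere (low-library differences 1.46 and 0.84), and their replicate 1 differences were 1.08 and 0.63. In fatty acid oxidation 11 of 15 estimates were above 0 (median 0.33, replicate 1 alone 0.37). HSD17B4, an enzyme of that pathway in peroxisomes, averaged 34.4 ± 3.59 in efficient and 18.7 ± 4.21 in inefficient steers (SD, n = 4 each; difference 0.90, SE 0.25, limma adjusted p = 0.377; replicate 1 difference 0.84). HSD17B4 is not among the 15 genes of the list. It was also above the other 6 libraries in the 2 low first-exon libraries elsewhere (low-library difference 0.73).

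In the citrate cycle and its side reactions IDH1, which makes NADPH in the cytosol, had a level of 313, 259, 299 and 398 in efficient steers, against 135, 142, 148 and 152 in inefficient steers. All 4 efficient values were 259 or higher and all inefficient values were 152 or lower (difference 1.12, SE 0.43, limma unadjusted p = 0.0197, adjusted p = 0.377; 8-library fit, adjusted p = 0.0287; replicate 1 difference 1.12). Its low-library difference was larger, 1.71. ME2, the mitochondrial malic enzyme, averaged 40.0 ± 8.91 in efficient and 20.2 ± 3.34 in inefficient steers (SD, n = 4 each), with no overlap (difference 0.97, replicate 1 difference 0.97). SDHD, a subunit of succinate dehydrogenase, averaged 112 ± 12.2 and 60.6 ± 11.4 (difference 0.90, replicate 1 difference 0.76). Low-library differences were 0.79 for ME2 and 1.63 for SDHD. Over the 22 citrate cycle genes the estimates split evenly, 11 above and 11 below 0. ME2 is not among these 22.

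Uptake and ion exchange gave opposite values for 2 transporters. SLC16A1 (MCT1), which carries short-chain acids and ketone bodies out to the blood side and is read in exon 5 on chromosome 3 from 30559092 to 30565145, had a level of 117, 182, 101 and 164 in efficient steers, against 72.8, 77.0, 75.4 and 30.1 in inefficient steers. The groups did not overlap (difference 1.20, SE 0.47, limma unadjusted p = 0.0222, adjusted p = 0.377), and inefficient replicate 4 lay far below its group. The replicate 1 difference was 0.97 and the low-library difference 1.61. SLC9A3 (NHE3), the apical exchanger of sodium for protons read in the region of its last exon, exon 17, on chromosome 20 from 71758792 to 71762305, had a level of 26.1, 12.5, 14.4 and 12.7 in efficient steers, against 43.9, 57.1, 44.5 and 62.4 in inefficient steers. Every efficient value was well below the lowest inefficient one, and the other 8 steers averaged 25.4 (high gain, high intake) and 24.2 (low gain, low intake). The difference was -1.71 (SE 0.43, limma unadjusted p = 0.0014, adjusted p = 0.377; 8-library fit, adjusted p = 0.0287). It had the same sign in the mean over all exons (-1.92) and for replicate 1 alone (-0.98), and the low-library difference was -0.998. Of 16 tested genes of monocarboxylate and ion transport, 6 estimates were above 0 and 10 below (median -0.26, replicate 1 alone 0.08, and 0.03 with each library centred on its median). SLC16A3 (MCT4) was at or under 0.30 in efficient and 0.61 in inefficient steers, and was not tested.

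Among uptake genes SLC14A1 followed the same order as SLC16A1. Of 17 tested genes of urea, water, glucose and amino acid uptake, 7 estimates were above 0 and 10 below (median -0.18, replicate 1 alone -0.06). SLC14A1 (UT-B), the urea channel of the epithelium read in exons 8 and 9 on chromosome 24 from 45919996 to 45924558, had a level of 73.0, 86.9, 102 and 65.4 in efficient steers, against 47.4, 57.0, 47.3 and 42.6 in inefficient steers. All 4 efficient values lay above all inefficient ones (difference 0.74, SE 0.26, limma unadjusted p = 0.0134, adjusted p = 0.377; adjusted p in the 8-library fit just above the threshold and the gene not called). The replicate 1 difference was 0.59 and the low-library difference 0.59. The low gain, low intake steers averaged 81.6 and the high gain, high intake steers 60.2, so the inefficient group was the lowest of the 4. AQP3, a channel for water and glycerol, is read in its first exon; there it was 38.0, 0.38, 0.15 and 0.16 in efficient steers, against 99.8, 78.0, 91.7 and 49.5 in inefficient steers. Its low-library difference was -7.68 and its replicate 1 difference -1.02. In its last exon the groups overlapped, efficient replicate 1 being within the inefficient range, and the difference was -0.77.

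**Figure D3:**
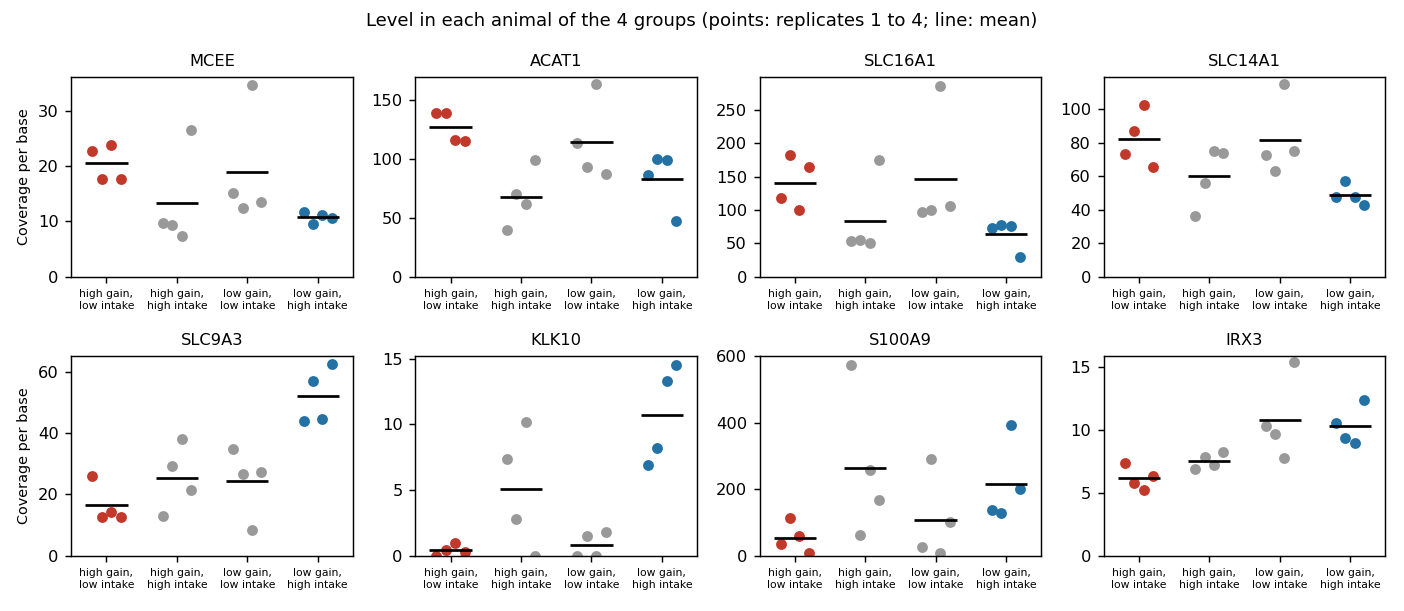
Coverage per base of 8 genes in each animal, with groups from high gain with low intake on the left to low gain with high intake on the right; points are animals and lines are group means. For MCEE, ACAT1, SLC16A1 and SLC14A1 the efficient mean is above the inefficient mean, and for SLC9A3, KLK10, S100A9 and IRX3 it is below, while the high gain, high intake mean of ACAT1 (67.7) is the lowest of its 4 groups.

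In detoxification and redox metabolism 21 of 32 estimates were above 0 (median 0.27, replicate 1 alone 0.19). GSTA4, a glutathione transferase that acts on lipid peroxidation products, had a level of 24.8, 19.5, 17.6 and 18.5 in efficient steers, against 7.45, 10.1, 7.99 and 7.19 in inefficient steers. The groups were far apart (difference 1.29, SE 0.34, limma unadjusted p = 0.00203, adjusted p = 0.377; 8-library fit, adjusted p = 0.0263), replicate 1 was the highest (1.60), and the low-library difference was 1.26. Reads of related transferase genes may have been shared with it. TXN, thioredoxin, averaged 76.6 ± 29.9 in efficient and 39.1 ± 11.6 in inefficient steers (SD, n = 4 each), with inefficient replicate 3 inside the efficient range (replicate 1 difference 0.55). CTH, which makes cysteine from cystathionine, had a level of 2.71, 4.53, 4.04 and 2.90 in efficient steers, against 0.51, 1.09, 2.89 and 0.76 in inefficient steers (difference 1.61, SE 0.44, limma unadjusted p = 0.00271; replicate 1 difference 1.27), and a difference of 0.34 in the mean over all exons. CTH is not among the 32 genes of the list. Low-library differences were 0.94 for TXN and 0.63 for CTH.

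Among genes of mitochondrial and nucleotide metabolism with the smallest p-values, MRPL22, a mitochondrial ribosomal protein, averaged 23.4 ± 4.90 in efficient and 10.5 ± 1.98 in inefficient steers (SD, n = 4 each; difference 1.15, SE 0.31, limma adjusted p = 0.377; replicate 1 difference 1.16). CMC1, an assembly factor of cytochrome oxidase, averaged 49.5 ± 9.95 and 21.9 ± 3.14 (difference 1.16, replicate 1 difference 0.69), and ADK, adenosine kinase, 61.3 ± 11.02 and 29.6 ± 5.42 (difference 1.05, replicate 1 difference 0.85). All 3 were also above the other 6 libraries in the 2 low first-exon libraries elsewhere. Nuclear genes of oxidative phosphorylation gave medians that differed with the region read. Over 71 genes the median was -0.58 in the best covered region, -0.03 in the last exon and -0.22 in the mean over all exons. For replicate 1 alone it was -0.03. In NDUFAB1, an acyl carrier of complex I, the sign turned. Its first exon had 0.20, 0.28, 0 and 0 in efficient steers, against 30.7, 2.45, 33.3 and 19.9 in inefficient steers. Its last exon gave a difference of 0.51. In NDUFS6, of the same list, the sign did not turn, with -4.83 in its first exon and -2.46 in its last.

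Cell cycle genes had a median difference of 0.50 with 17 of 28 estimates above 0, and 0.24 for replicate 1 alone. In 1 of the 28 genes all efficient values lay above all inefficient ones, beside 12.8% of all tested genes. In 2 they all lay below, beside 17.0%. UNG and CDKN3, described here for their small p-values, are not among the 28. UNG, which removes uracil from DNA, had a level of 15.9, 18.4, 13.1 and 19.8 in efficient steers, against 9.96, 12.7, 10.4 and 7.75 in inefficient steers, with no overlap (difference 0.72, SE 0.21, limma unadjusted p = 0.00348, adjusted p = 0.377). For UNG the replicate 1 difference was 0.66 and the low-library difference 0.28. RRM1, a subunit of ribonucleotide reductase, averaged 22.6 ± 7.19 in efficient and 12.5 ± 5.14 in inefficient steers (SD, n = 4 each; replicate 1 difference 0.50), and inefficient replicate 3 lay inside the efficient range. CDKN3, a cell cycle phosphatase, was at 1.31, 5.03, 2.24 and 2.26 in efficient steers, against 0.53, 0.61, 0.70 and 0.65 in inefficient steers (difference 1.80, SE 0.51, limma adjusted p = 0.377), with a replicate 1 difference of 0.97 and a low-library difference of 1.49.

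Growth factor genes were divided. HBEGF, a ligand of the epidermal growth factor receptor made by epithelial cells read in exon 6 on chromosome 7 from 53215883 to 53217191, had a level of 17.3, 18.5, 21.9 and 14.3 in efficient steers, against 10.4, 8.12, 13.0 and 9.49 in inefficient steers. All efficient values were above all inefficient ones in that region, which is its last exon (difference 0.81, SE 0.22, limma unadjusted p = 0.00228, adjusted p = 0.377, and adjusted p = 0.0493 in the 8-library fit). The order was the same in the mean over exons, which includes that region. HBEGF did not follow the low first-exon libraries elsewhere (0.05), and its replicate 1 difference was 0.77. IGF2, insulin-like growth factor 2, had a level of 2.37, 1.90, 0.52 and 1.88 in efficient steers, against 7.54, 5.05, 7.14 and 6.56 in inefficient steers (difference -2.07, SE 0.49, limma unadjusted p = 0.000877, adjusted p = 0.377; 8-library fit, adjusted p = 0.042). For IGF2 the replicate 1 difference was -1.42 and the low-library difference -1.23. Over the list of insulin and growth factor signalling 15 of 20 estimates were below 0 (median -0.65, replicate 1 alone -0.34). ASIP, the agouti protein that blocks melanocortin receptors read in exon 2 on chromosome 13 from 64234633 to 64234804, had a level of 37.7, 6.51, 49.2 and 32.5 in efficient steers, against 0, 0, 17.5 and 0.22 in inefficient steers. It was the gene with the smallest p among those higher (difference 5.69, SE 1.38, limma unadjusted p = 0.001, adjusted p = 0.377). Inefficient replicate 3 stood above efficient replicate 2, and without inefficient replicate 3 it was the only gene to pass the test (difference 7.42, limma adjusted p = 0.0116). The other groups averaged 22.1 (high gain, high intake) and 16.7 (low gain, low intake), the mean over all its exons gave 2.53, the replicate 1 difference was 6.28, and the low-library difference was -1.78. The ASIP values thus rest mainly on 1 region of 172 bases. In its last exon ASIP was low and the groups overlapped. The means there were in the opposite order, 0.315 in efficient and 0.975 in inefficient steers.

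**Figure D4:**
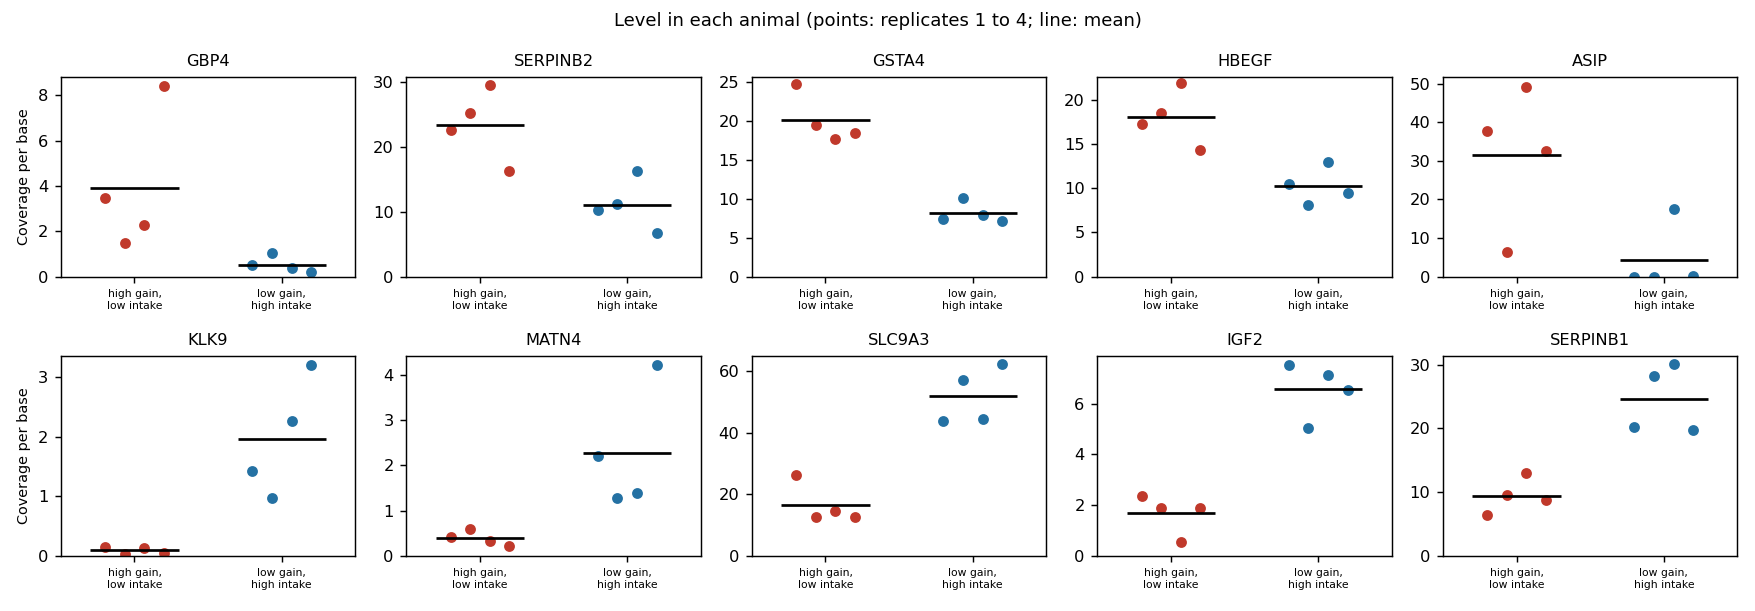
Coverage per base in each of the 8 animals for 5 genes with higher means in efficient steers (GBP4, SERPINB2, GSTA4, HBEGF and ASIP, upper row) and 5 with lower means (KLK9, MATN4, SLC9A3, IGF2 and SERPINB1, lower row); high gain with low intake is left of low gain with high intake, points are animals and lines are means. The groups do not overlap in any panel except that of ASIP, where inefficient replicate 3 reaches 17.5.

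Genes of the cornified surface layers had the lowest median of the 33 lists with at least 5 tested genes, -1.33, with 19 of 21 estimates below 0 and all 4 efficient values below all inefficient ones in 9, beside 17.0% of all tested genes. In 9 of the 21 genes both low first-exon libraries elsewhere also lay below the other 6, beside 35.5% of all tested genes. Replicate 1 alone gave -0.57, and the last exon -1.29. The list was also the lowest with median centring (-1.04) and quantile normalization (-1.06), but not with the first-exon index as a term (-0.08), where macrophages and dendritic cells were at -0.42. KLK9, a kallikrein-family protease gene, had the smallest p of all genes: 0.15, 0.03, 0.13 and 0.04 in efficient steers, against 1.43, 0.97, 2.26 and 3.20 in inefficient steers (difference -3.39, SE 0.77, limma unadjusted p = 0.000546, adjusted p = 0.377; 8-library fit, adjusted p = 0.026). Its replicate 1 difference was -2.92 and its low-library difference -2.13. KLK9 averaged 2.67 in the high gain, high intake steers, above the 1.965 of the inefficient steers, and 0.225 in the low gain, low intake steers. KLK10, a neighbouring kallikrein gene, was listed at 0, 0.40, 0.97 and 0.26 in efficient steers, against 6.94, 8.23, 13.3 and 14.5 in inefficient steers; the low gain, low intake steers averaged 0.81 and the high gain, high intake steers 5.08. For KLK10 the replicate 1 difference was -6.69 and the low-library difference -4.33. KLK12, named after its values were seen, was listed at 0, 0, 0.21 and 0 in efficient steers, against 3.05, 3.16, 6 and 3.99 in inefficient steers. The low-library difference of KLK12 was -4.48. KLK12 averaged 8.14 in the high gain, high intake steers, above the 4.05 of the inefficient steers, and 1.08 in the low gain, low intake steers. KLK7 and KLK8 did not reach the minimum for testing; their highest values were 0.05 and 0.12 in efficient steers, against 4.30 and 7.01 in inefficient replicate 3. Related kallikrein genes may share reads.

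S100A9, a calcium-binding protein of stressed epithelium and of neutrophils, had a level of 35.9, 114, 58.5 and 8.36 in efficient steers, against 137, 127, 393 and 201 in inefficient steers, with no overlap (difference -2.35, SE 1.03, limma unadjusted p = 0.0392, adjusted p = 0.377; replicate 1 difference -2.42). CNFN, cornifelin of the cell envelope, had a level of 1.03, 0.35, 0.50 and 0.16 in efficient steers, against 7.65, 10.3, 6.04 and 15.0 in inefficient steers (difference -4.13, SE 1.17, unadjusted p = 0.00338), a replicate 1 difference of -3.04 and a low-library difference of -4.72. SERPINB1, an inhibitor of neutrophil proteases, had a level of 6.35, 9.50, 13.0 and 8.66 in efficient steers, against 20.3, 28.3, 30.2 and 19.7 in inefficient steers (difference -1.40, SE 0.39, unadjusted p = 0.0028), with a replicate 1 difference of -1.91. SERPINB2, an inhibitor of plasminogen activators, was the reverse, at 22.5, 25.2, 29.5 and 16.3 in efficient steers, against 10.2, 11.2, 16.3 and 6.65 in inefficient steers. Efficient replicate 4 and inefficient replicate 3 almost met (difference 1.11, SE 0.28, limma unadjusted p = 0.00152, adjusted p = 0.377; replicate 1 difference 1.09). In the mean over all exons the SERPINB2 difference was 0.51 and the groups overlapped. There efficient replicate 4 was at 5.30 and inefficient replicate 3 at 5.52. S100A9 averaged 264 in the high gain, high intake, 107 in the low gain, low intake and 214 in the inefficient steers. SERPINB1 averaged 23.7, 13.6 and 24.6 in the same order.

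The markers of the basal layer, where division occurs, gave mixed values. ITGA6, an integrin of the basal cell surface, averaged 13.9 ± 4.04 in efficient and 7.63 ± 2.47 in inefficient steers (SD, n = 4 each), with no overlap (difference 0.89, replicate 1 difference 0.72, low-library difference 1.10). KRT14, a basal keratin, had a level of 319, 80.4, 744 and 233 in efficient steers, against 288, 213, 384 and 509 in inefficient steers, so the groups overlapped fully (difference -0.36, limma adjusted p = 0.839; replicate 1 difference -0.05). ITGB4, the partner of ITGA6, was listed at 6.85, 0, 0 and 0.76 in efficient steers, against 14.8, 20.8, 15.8 and 10.7 in inefficient steers, with a replicate 1 difference of -1.13 and a low-library difference of -5.79.

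Immune genes had both directions. GBP4, an interferon-induced GTPase read in exon 11 on chromosome 3 from 54682666 to 54683050, had a level of 3.46, 1.5, 2.29 and 8.40 in efficient steers, against 0.51, 1.03, 0.39 and 0.19 in inefficient steers, with no overlap (difference 2.55, SE 0.63, limma unadjusted p = 0.00122, adjusted p = 0.377; 8-library fit, adjusted p = 0.0452; replicate 1 difference 2.67). MX1, another interferon-induced GTPase with antiviral action, had a level of 1.91, 1.66, 1.31 and 3.70 in efficient steers, against 3.77, 6.15, 4.82 and 5.85 in inefficient steers (difference -1.31, SE 0.36, limma unadjusted p = 0.00291, adjusted p = 0.377). For MX1 the replicate 1 difference was -1.36 and the low-library difference 0.18. GBP4 had a low-library difference of 1.16. In the mean over all exons the GBP4 groups overlapped, with efficient replicate 2 at 0.74 and inefficient replicate 2 at 0.88. In the list of interferon-induced genes 12 of 21 estimates were above 0, and its median was 0.33 in the best covered region, 0.05 for replicate 1 alone and -0.54 in the last exon. Antigen presentation had 14 of 15 estimates below 0 (median -0.60, replicate 1 alone -0.64, last exon -0.46). PSMB8, an immunoproteasome subunit, had a level of 2.68, 0.16, 0.64 and 1.22 in efficient steers, against 3.49, 5.49, 7.46 and 3.68 in inefficient steers (difference -2.42, SE 0.88, unadjusted p = 0.0157), with a replicate 1 difference of -0.82 and a low-library difference of -2.61. TLR2, a receptor for bacterial lipoproteins, was at 1.30, 2.30, 1.22 and 1.44 in efficient steers, against 0.86, 1.13, 1.06 and 0.39 in inefficient steers, with no overlap (difference 0.84, SE 0.40, unadjusted p = 0.0522; replicate 1 difference 0.63). TRIM5, an antiviral factor listed on several chromosomes and so uncertain, averaged 8.86 ± 3.06 in efficient and 2.43 ± 1.40 in inefficient steers. NKG7, of cytotoxic lymphocytes, was at 0.25 to 0.61 in efficient and 0.69 to 1.34 in inefficient steers, low in both.

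Among genes of the core of the papilla, the smooth muscle list had a median of -0.90 with 14 of 18 estimates below 0, and the endothelium list -0.54 with 10 of 16. Under quantile normalization these medians became -0.08 and 0.07, and for replicate 1 alone they were -0.35 and 0.08. The summed level of the smooth muscle genes was 66.0 to 77.4 in efficient and 88.5 to 109 in inefficient steers. TAGLN, a smooth muscle actin-binding protein, had a level of 6.70, 2.38, 3.27 and 3.63 in efficient steers, against 18.4, 15.8, 16.3 and 17.1 in inefficient steers (difference -2.15, SE 0.93, limma unadjusted p = 0.0371; replicate 1 difference -1.32). It followed the low first-exon libraries (-3.64), as did VWF of endothelium, listed at 1.92, 0, 0 and 0 in efficient steers, against 6.67, 12.6, 10.6 and 7.88 in inefficient steers (-5.97). PECAM1, another defining marker of vessels, overlapped between the groups, at 4.39 to 7.61 in efficient and 3.59 to 5.67 in inefficient steers. COL3A1, a fibrillar collagen, had a level of 97.7, 141, 78.0 and 58.6 in efficient steers, against 62.7, 68.9, 112 and 47.4 in inefficient steers (difference 0.37, limma adjusted p = 0.587; replicate 1 difference 0.50). COL1A1, its partner in the matrix, was at 34.0, 0.10, 2.84 and 4.87 in efficient steers, against 41.3, 51.9, 52.5 and 24.3 in inefficient steers; only the 3 low first-exon libraries were outside the inefficient range, and the last exon difference was -0.54. MATN4, a matrilin of the matrix, had a level of 0.42, 0.59, 0.32 and 0.21 in efficient steers, against 2.22, 1.27, 1.38 and 4.23 in inefficient steers (difference -2.19, SE 0.50, limma unadjusted p = 0.000603, adjusted p = 0.377; 8-library fit, adjusted p = 0.042). Its replicate 1 difference was -2.03 and its low-library difference -0.46.

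Homeobox genes, which hold positional identity, had 8 of 10 estimates below 0 (median -0.48, replicate 1 alone -0.16). IRX3, in exons 2 to 4 on chromosome 18 from 22691738 to 22693696, had a level of 7.40, 5.76, 5.25 and 6.35 in efficient steers, against 10.5, 9.40, 8.97 and 12.4 in inefficient steers, with no overlap (difference -0.73, SE 0.22, limma unadjusted p = 0.0045, adjusted p = 0.377; 8-library fit, adjusted p = 0.0488). Its replicate 1 difference was -0.46 and its low-library difference -0.19. PITX1 was at 20.0, 5.98, 4.98 and 5.72 in efficient steers, against 50.0, 37.8, 52.7 and 60.3 in inefficient steers (difference -2.68, SE 0.73, unadjusted p = 0.00258), with a replicate 1 difference of -1.30 and a low-library difference of -2.66.

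The lists of the proteasome, cytosolic ribosome, vacuolar proton pump and unfolded protein response had medians between -0.28 and 0.19 in the main scaling. Other lists of genes that all cells use were partly farther from 0. Oxidative phosphorylation was at -0.58, glycolysis at -0.50, lysosome and autophagy at -0.35, the citrate cycle at 0.03 and cholesterol synthesis at 0.21. The proteasome had 0.19, with 22 of 34 estimates above 0, and 0.48 with each library centred on its median. The cytosolic ribosome had -0.28 (40 of 64 below 0), the vacuolar proton pump -0.25 (11 of 19 below 0) and the unfolded protein response -0.15 (21 of 26 below 0), but with that centring these became 0.01, 0.04 and 0.14, since it moved the median of all genes from 0.03 to 0.32. The highest summed level of the ribosomal genes was 13644 in efficient and 13722 in inefficient steers, and the lowest 6560 and 11481.

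**Figure D5:**
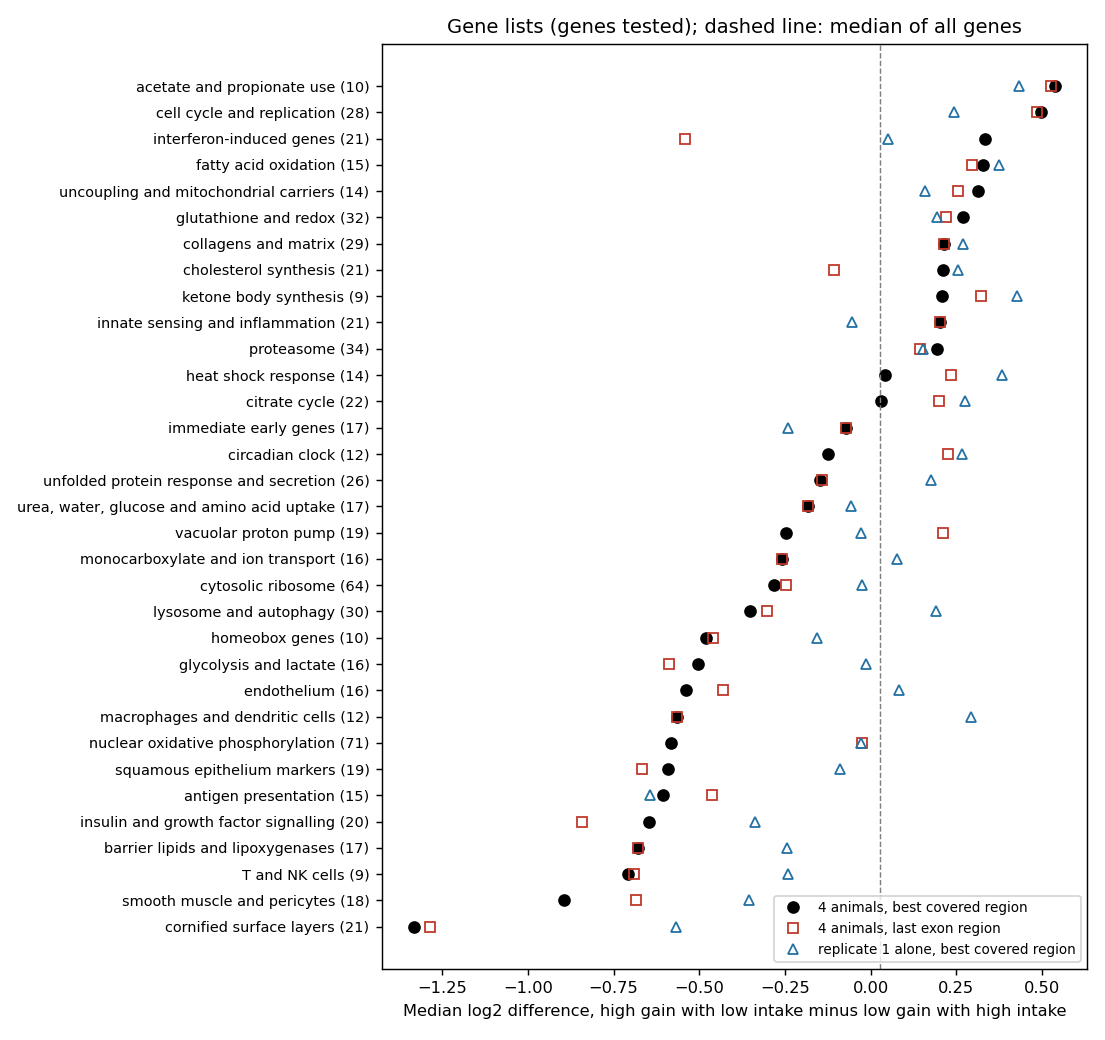
Median log2 difference, efficient minus inefficient steers, of the 33 gene lists with at least 5 tested genes (number of genes in brackets), in the best covered region over 4 animals (filled circles), in the last exon region (open squares) and for efficient replicate 1 alone (triangles). The cornified surface layers lie lowest at -1.33 and acetate and propionate use highest at 0.54; the dashed line is the median of all genes, 0.03.

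Of the genes with the lowest p-values that were lower in efficient steers, many were listed at or near 0 in efficient animals. VGLL4, a cofactor of TEAD factors, was listed at 0 in all 4 efficient steers in its best covered region, against 2.02, 2.80, 1.12 and 0.97 in inefficient steers. That region was also at 0 in both low first-exon libraries elsewhere (low-library difference -3.62). In the mean over all exons VGLL4 averaged 0.35 in efficient and 1.01 in inefficient steers (difference -1.41). MIF, a cytokine with tautomerase activity, was at 8.37, 0.25, 0.13 and 0.24 in efficient steers, against 88.6, 62.2, 85.2 and 75.6 in inefficient steers (difference -6.80, limma unadjusted p = 0.00263), and had a replicate 1 difference of -3.19 and a low-library difference of -6.33. 

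Further genes with small unadjusted p-values cover signalling, membranes and chromatin. FEM1C, a substrate receptor of a ubiquitin ligase, had a level of 15.4, 15.7, 15.1 and 13.3 in efficient steers, against 6.57, 7.72, 8.10 and 7.22 in inefficient steers, with no overlap (difference 1.00, SE 0.31, limma adjusted p = 0.377; 8-library fit, adjusted p = 0.0277; replicate 1 difference 1.05). S100A10, which binds annexin A2 at membranes, averaged 68.1 ± 16.0 in efficient and 35.0 ± 8.81 in inefficient steers (SD, n = 4 each; difference 0.96, replicate 1 difference 0.73). RELL1, a membrane protein of the tumour necrosis factor receptor family, averaged 6.75 ± 1.86 and 2.69 ± 0.257 (difference 1.26, replicate 1 difference 1.02). PRIM1, the DNA primase subunit, averaged 3.50 ± 1.22 and 1.40 ± 0.584 (difference 1.29, replicate 1 difference 1.81), and RMND1, of mitochondrial translation, 4.37 ± 0.626 and 1.80 ± 1.03 (difference 1.41, replicate 1 difference 1.42). STAR, the steroidogenic cholesterol carrier, was at 1.66, 1.51, 2.51 and 3.12 in efficient steers, against 0, 0.40, 0 and 1.25 in inefficient steers (replicate 1 difference 2.62). Low-library differences were 0.72 for FEM1C, 0.88 for S100A10, 1.42 for RELL1, 0.84 for PRIM1, 0.50 for RMND1 and 1.13 for STAR. S100A10 and RELL1 were also above the other 6 libraries in both low first-exon libraries elsewhere.

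Genes lower in efficient steers included PTGES, the prostaglandin E synthase, at 0.72, 0.30, 0.21 and 0.61 in efficient steers, against 1.79, 2.64, 2.82 and 2.03 in inefficient steers (difference -2.20, SE 0.60, limma unadjusted p = 0.00249, adjusted p = 0.377; 8-library fit, adjusted p = 0.0362). Its replicate 1 difference was -1.54 and its low-library difference -1.71. ING5, a chromatin reader of histone acetylation complexes, averaged 1.04 ± 0.434 in efficient and 2.83 ± 0.686 in inefficient steers, SD, n = 4 each (difference -1.41, SE 0.34, unadjusted p = 0.000894), and had a replicate 1 difference of -0.75 and a low-library difference of -0.59. Both genes had every efficient value below every inefficient value.

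The low first-exon libraries elsewhere also divide the genes whose groups do not overlap. Of the 1513 genes with all 4 efficient values below, 76 were not beyond the range of the other 6 libraries in both of those 2 libraries, and of the 1142 above, 142 were not, beside 2863 of all 8903 tested genes (32.2%). Where the same order was also required in the last exon and in the mean over exons, the counts were 53 of 1213 genes (13.6% of those tested) and 60 of 750 (8.42%). These readings overlap, since the best covered region can be the last exon region and is part of the mean over exons.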

How the data were processed

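The 8 libraries compared, and the other 8 of the series, were taken from 1 deposited table of 2351373 regions. TopHat2 2.08b and build UMD3.1 are named, per the submitters' processing notes; which annotation and coverage tool served is not given in the sources used here. Signal values, as deposited by the authors, are mean read coverage per base times 1 factor per library, as the values themselves show, and estimated reads per library were read from the value of 1 read. The authors' deposited log2, fold and p-value columns were not used. The 518 regions that carry exons of more than 1 gene were dropped. A gene's level was its exon region with the highest mean over 16 libraries, and in 718 of the tested genes that region holds a first exon. Of 11996 genes, 8903 reached 0.5 in 4 or more of the 8 libraries and were tested, and 3093 were not.

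Log2(value + 0.1) entered limma 3.58.1 (R 4.3.3; trend and robust empirical Bayes) on 4 group means over 16 libraries, two-sided, with Benjamini-Hochberg adjustment over genes and a threshold of 0.05. The script was tested on simulated data. Library measures and principal components were compared with exact permutation tests. Labels do not say whether animals share a pen, sire or day, and the p-values measure the spread between these animals. The file gives coverage and not counts, so no count test or interval was used, and low levels rest on few reads.

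Named genes are 12 per direction with the smallest p, up to 10 more per direction whose groups do not overlap in the best covered region and in a region without a first exon, 2 per list with the smallest p and 24 fixed genes, of which 21 could be tested; some of the genes so chosen are not reported here. The members and the 36 lists were chosen with earlier results of these data known. The first-exon index uses genes of at least 6 exons. Reads shared by the 72 symbols listed on several chromosomes, or by near-identical genes, cannot be told apart. Other settings tried were the pseudocount, the filter, the region, the normalization, the libraries, the index as a term and leaving out each library.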

Additional observations from a re-analysis of the deposited data

Results flagged for a closer look

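In 37 named genes 1 animal lay far from the other 3 of its group by Dixon's criterion for 4 samples; chance flags about 1 in 20 groups. Of these, 25 were efficient replicate 1, the library of its group that is not low in first exons. The part of first-exon coverage in these values was not tested.

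Efficient replicate 1 had the highest value of its group in all 25 genes. In epithelium and transport it had 26.1 for SLC9A3 (others 12.5 to 14.4), 38.0 for AQP3 (0.15 to 0.38), 222 for SLC25A6 (0.56 to 4.30), 75.5 for ATP6V0C (43.3 to 46.2), 6.85 for ITGB4 (0 to 0.76) and 20.0 for PITX1 (4.98 to 5.98). In metabolism and stress response it had 6.56 for PFKL (0.08 to 0.83), 1.59 for PFKP (0.09 to 0.20), 17.0 for SREBF2 (0 to 1.82), 6.33 for HSF1 (0 to 0.36) and 199 for HSPA1A (32.4 to 42.2). In vessels and matrix it had 34.0 for COL1A1 (0.10 to 4.87), 1.92 for VWF and 0.90 for EGFL7, both at 0 in the other 3. It had 8.37 for MIF (0.13 to 0.25), 1.19 for FBXW5 (0.08 to 0.11) and 0.28 for C15H11orf96 (0 to 0.03). It was the only efficient library above 0 for ALS2CL (1.49), CBX1 (0.23), PPP1R16A (0.11), RCOR2 (0.20), WNT6 (0.32), TXNRD2 (1.72), GNB1L (0.30) and CFD (1.81).

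Efficient replicate 2 stood apart with 3.24 for DNAJC6 (others 1.05 to 1.29) and 0.49 for RNH1, which was at 0 in the others. Efficient replicate 3 had 0.16 for CARD14 and 0.21 for KLK12, each at 0 in the others, and efficient replicate 4 had 0.47 for LOC616942 (0 to 0.07) and 0.43 for TMEM184A (0 in the others).

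Among inefficient steers, replicate 3 had 17.5 for ASIP (others 0 to 0.22), 56.4 for TXN (31.5 to 34.5) and 49.9 for PDIA4 (23.0 to 23.9). Replicate 4 had 30.1 for SLC16A1 (72.8 to 77.0) and 3.44 for ELN (6.83 to 7.49), and replicate 1 had 7.87 for DEGS2 (9.90 to 10.1).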

How the results depend on the processing

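No paired analysis was possible because nothing in the labels ties an animal of one group to an animal of the other; numbers follow accession order. The main test called 0 genes in either direction. The 8 libraries alone called 140 higher and 537 lower, and the 8 libraries with the last exon region, a setting chosen after seeing the data, called 780 higher (9.01%) and 1219 lower (14.1%). With the first-exon index as a term 1 gene was higher, GNA12 (limma adjusted p = 0.0388). Without all 5 libraries low in first exons 2 were lower, IGFBP2 (adjusted p = 0.0387) and TMEM184A (adjusted p = 0.00461). Leaving out 1 library gave 0 to 1 higher genes, the 1 being ASIP without inefficient replicate 3, and 0 lower. Every other alternative run called 0 genes in each direction. These were pseudocounts of 0.5 and 1, no filter, a filter at 2, limma without trend and robust options, quantile normalization, median centring, the 3 other regions, and leaving out efficient replicates 2 to 4 together. The smallest adjusted p over these alternatives was 0.132 with quantile normalization and the largest 1.0 without efficient replicates 2 to 4.

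Scaling changed the balance of directions. The median of all genes, 0.03, became 0.32 with median centring and 0.34 with quantile normalization. Differences given here had nothing subtracted and are to be read beside the median of 0.03. At an unadjusted p under 0.05 the share of higher genes was 32.7%, 53.0% with median centring, 56.1% with quantile normalization and 82.0% with the first-exon index as a term. Without efficient replicate 1, the adjusted p was 0.0476 for estimated reads, the first-exon index and genes listed at 0. Over leaving out 1 library, estimated reads differed by 2.00 to 4.02 M, the index by -1.96 to -1.45, and genes at 0 by 83.1 to 270 genes. The principal component tests say nothing of stability, since the smallest exact p, 0.0286, adjusts to 0.0857 where 1 of 3 components reaches it.

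Of 79 list medians that moved by more than the spread, 18 did so with the index as a term and 13 without efficient replicates 2 to 4. Medians of 7 of the 33 lists changed sign with median centring, 5 with quantile normalization and 15 with the index as a term, where growth factor signalling became 0.11, smooth muscle 0.53 and oxidative phosphorylation 0.56, while the cornified surface layers stayed below 0 (-0.08). Signs of named genes turned as follows, and the cause was not tested. With the index as a term the differences became 0.47 for DEGS2, -0.15 for SDHD, 0.20 for SLC25A6 and for ATP6V0C, 0.58 for ATP6V1F, 1.32 for PFKL, 0.75 for PFKP, 1.12 for SREBF2, 0.020 for ATG7, 0.055 for COL6A1, 0.10 for LMOD1, 0.36 for TAGLN, 0.39 for CCL5 and 0.18 for C1QC. They became 0.048 for CSF1R, 0.48 for NFKB2, 0.57 for JUNB, 0.22 for ZFP36, 0.66 for DBP, 2.18 for BDH1, 0.60 for KRT5, 2.61 for KRT14, 1.93 for COL1A1, -0.56 for COL3A1 and -0.033 for IGFBP7. In the last exon region, on 16 and on 8 libraries, NDUFAB1 gave 0.51, ATG7 0.25 and UCP2 -1.48. NDUFAB1 also gave 0.51 in a region without a first exon. In the mean over all exon regions NDUFAB1 gave 0.021, VDAC2 0.14, RPS20 -0.10, UCP2 -0.92 and IGFBP7 -0.044. Without efficient replicates 2 to 4, and likewise without all 5 libraries low in first exons, HSPA1A gave 0.16, BDH1 0.43, UCP2 -0.14 and KRT5 0.21. Over leaving out 1 library, BDH1 ranged from -0.90 to 0.12, UCP2 from -0.065 to 0.44 and KRT14 from -0.87 to 0.20. With 1 efficient library left, that library is assumed to vary like the other groups.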

Other observations

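Some further genes kept their order in 3 readings of each gene and were not beyond the range of the other 6 libraries in both low first-exon libraries elsewhere. The readings are not independent. For CEBPD, with 1 exon, all 3 are the same values. For PPIL1, ARHGAP18, METTL21D, ATG4A, PLIN2, M-SAA3.2 and RNH1 the best covered region is the last exon region. The mean over exons includes the best covered region in every gene. The 8 per direction with the smallest p that had not been named were taken after their values were seen, so they support nothing beyond their own values. They are not free of the low first-exon pattern. Low-library differences of the higher genes were 0.97 for USP16, 0.82 for ARHGAP18, 0.62 for KHDRBS1 and 0.56 for PLIN2. They were 0.48 for RSU1, 0.47 for METTL21D and 0.31 for PPIL1 and for ATG4A. PLIN2, which coats lipid droplets, had a level of 13.9, 15.7, 15.5 and 23.97 in efficient steers, against 11.99, 8.82, 12.2 and 8.21 in inefficient steers (difference 0.73, SE 0.27, limma unadjusted p = 0.0177, adjusted p = 0.377). ATG4A, a protease of autophagy, averaged 6.03 ± 0.698 in efficient and 3.92 ± 0.639 in inefficient steers, and KHDRBS1, an RNA-binding protein, 17.3 ± 3.06 and 9.92 ± 2.19 (SD, n = 4 each). USP16, a deubiquitinase of histone H2A, averaged 13.5 ± 3.77 and 6.05 ± 1.82, and PPIL1, a splicing factor, 18.8 ± 2.54 and 12.4 ± 0.645. ARHGAP18, RSU1 and METTL21D were likewise higher in all 4 efficient steers, with differences of 1.11, 1.10 and 0.70.

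Of the genes lower in efficient steers, M-SAA3.2, a serum amyloid A that epithelia make in inflammation, had a level of 0.59, 1.93, 3.88 and 5.17 in efficient steers, against 12.1, 19.0, 34.4 and 27.7 in inefficient steers (difference -3.22, SE 1.13, limma unadjusted p = 0.0129, adjusted p = 0.377; 8-library fit, adjusted p = 0.0407). All 4 efficient values lay below all inefficient ones, efficient replicate 1 was the lowest, and near-identical amyloid genes may share its reads. CEBPD, a transcription factor of the acute phase response read in its only exon, had a level of 7.61, 6.66, 6.19 and 9.86 in efficient steers, against 16.0, 10.2, 15.5 and 13.3 in inefficient steers (difference -0.85, SE 0.25, unadjusted p = 0.00407). Its replicate 1 difference was -0.82 and its low-library difference -0.44. The low-library difference of M-SAA3.2 was -1.18. Among the other lower genes taken in this way it was -4.48 for KLK12, -3.20 for WNT6 and -3.62 for TXNRD2. For GNB1L it was -4.19, for RNH1 -5.66 and for CFD -4.22.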
